A study of Mus musculus with 18 samples.

Results

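The miRNAs encoded within the Hox gene clusters were followed while mouse embryonic stem cells (ESCs) were being derived from blastocysts. They were chosen by name: mmu-miR-10a-5p, mmu-miR-10b-5p, mmu-miR-196a-5p and mmu-miR-196b-5p (mmu, for mouse, is left out below), 4 of the 1390 mature miRNAs measured by small-RNA sequencing. The 18 libraries formed 9 groups of 2: the freshly isolated inner cell mass (ICM) of E3.5 blastocysts as day 0, its outgrowths at 5 times from day 0.5 to day 5 (days 1, 2 and 3 between), and ESCs with 3 passage codes. All came from superovulated mice of the NMRI strain, without a transgene or deletion named in the labels. R2i medium with leukemia inhibitory factor is the labelled medium of every group, and the isolated ICM was placed into it on gelatin. R2i combines PD0325901, which inhibits MEK, with SB431542, which inhibits the TGF-beta receptor kinase. The ICM was taken by immunosurgery, which lyses the outer trophectoderm with antiserum and guinea pig complement. ESC groups are named by the code in the sample descriptions (P2, P4, P15), whose titles give passages 4, 15 and 2, so no order of passages is read. No label says whether the replicates are separate embryos or cultures, so p-values measure the spread between these libraries, which may be technical.

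Hox genes are transcription factors that lay out the head-to-tail axis, and their 4 clusters are silent or low in pluripotent cells and opened in sequence during gastrulation. The miRNAs lie among them and repress mRNAs, Hox mRNAs included, through a seed at bases 2 to 8. miR-10a and miR-10b sit near the anterior-side Hox4 genes. miR-196 genes sit near the posterior-side Hox9 and Hox10 genes, and miR-196 is known for silencing Hoxb8 by cleavage of its mRNA. In ESC cultures retinoic acid is known to induce miR-10a together with Hoxb genes.

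The mature sequences (RefSeq, GRCm38.p6) are shown because each pair differs at a single base, so that the counts of its members rest on that base. All 4 names matched the RefSeq table, and capitals mark the seed.
miR-10a-5p: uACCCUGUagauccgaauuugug
miR-10b-5p: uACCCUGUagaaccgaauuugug
miR-196a-5p: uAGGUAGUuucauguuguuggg
miR-196b-5p: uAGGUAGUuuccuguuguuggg
Counted from the 5′ end, miR-10a-5p differs from miR-10b-5p only by U12A over 23 bases, and miR-196a-5p differs from miR-196b-5p only by A12C over 22 bases. In both pairs the difference lies outside the seed, and each seed is shared by 2 of the 1679 mature entries of the table, the members of the pair. How the authors assigned reads between such near-identical sequences is not given in the sources used here, so each pair's split carries that uncertainty.

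The 5 genes of these miRNAs lie in all 4 clusters (positions on GRCm38, GENCODE vM21). Mir10a is at chr11:96317165-96317274 (plus strand), between Hoxb5 and Hoxb4, 992 bases from Hoxb4 and outside any other annotated gene. Mir10b is at chr2:74726070-74726137 (plus strand), in introns of Hoxd3 and Hoxd4. miR-196a-5p has 2 genes with the same mature sequence. Mir196a-1 is at chr11:96265164-96265265 (plus strand), outside any other annotated gene, 6191 bases from Hoxb9. It lies 51899 bases from Mir10a in the same cluster. Mir196a-2 is at chr15:102973350-102973434 (plus strand), in an intron of a long Hoxc5 transcript, between Hoxc10 and Hoxc9. Mir196b is at chr6:52230081-52230165 (minus strand), in an exon of Hoxa9. Another Hox cluster miRNA, miR-615, comes from chr15:103014910-103015001 (plus strand), in an intron of Hoxc5. Gm44463, a miRNA-type gene model in the Hoxd cluster, was not analysed here.

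**Figure D1:**
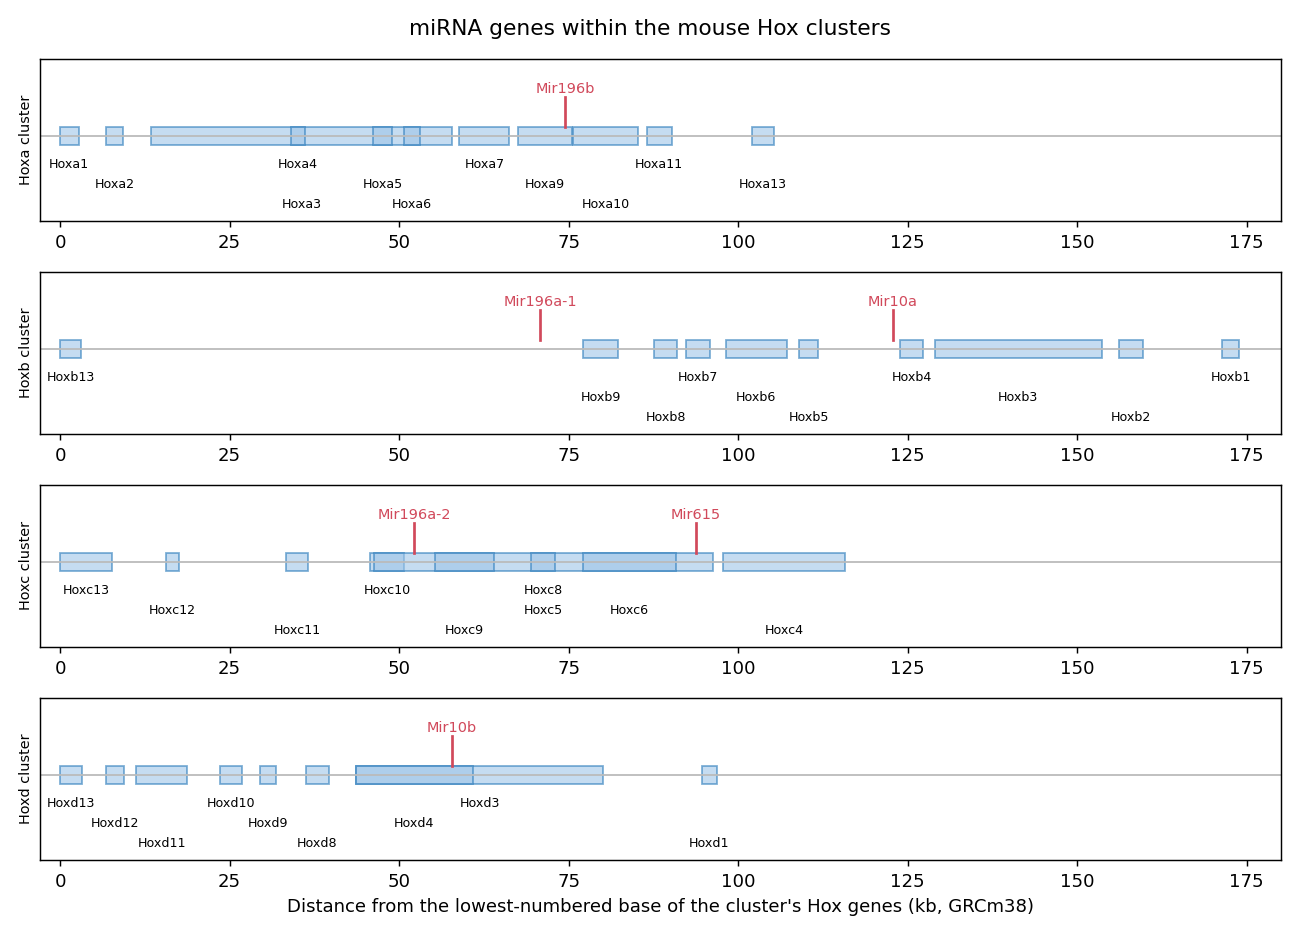
Map of the 4 mouse Hox clusters, with distance in kb along the horizontal axis, Hox genes as blue boxes to scale and miRNA genes as red marks. Mir10a and Mir196a-1 share the Hoxb cluster, whereas Mir10b is the sole red mark in Hoxd and Mir196b in Hoxa.

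The known target site of miR-196 in Hoxb8 shows what base 12 faces. It lies at chr11:96284888-96284909 (GRCm38), in the 3′ UTR, and is printed with the stretch facing the seed in capitals.
Hoxb8 site: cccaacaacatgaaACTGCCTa
miR-196a-5p forms 21 Watson-Crick pairs and 1 G-U pair with it over 22 bases (U5G, the miRNA's base first and the site's base last). That G-U pair lies within the seed. miR-196b-5p forms 20 and 1, with C12U unpaired. Hoxb8 mRNA was not measured in these libraries.

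Values are normalized counts that the authors rounded to whole numbers, with totals of 602238 to 1265117 per library. Depth differed by stage. Up to day 3, in 10 libraries, the values fall on an even step, 1 read being worth 1.73 to 5.44 normalized counts, which gives an estimated 111000 to 370000 reads. The 8 libraries of day 5 and ESCs show no such step. If their lowest listed value stands for 5 reads, as it does in the others, they hold at least 2320000 to 3020000 reads. No value under about 5 reads is listed in those 10 libraries, so comparisons were repeated with all values below 27.2, which is 5 reads in the shallowest library, raised to that common floor. The miR-290-295 cluster, a marker of pluripotent mouse cells, was present under each label. Its 12 matched arms summed to 92722 and 101314 in ICM, 59630 to 95396 in outgrowths and 103607 to 140283 in ESCs. The most abundant was miR-292-5p at 16837 to 53924. Single arms were at 0 in some libraries. These were miR-290a-5p in both of P2 and in P15 replicate 1, and miR-294-5p in both of day 5 and in day 1 replicate 2. Being bulk samples, fewer cells of a type and less RNA per cell cannot be told apart.

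miR-10b-5p was the most abundant of the 4 in 16 of 18 libraries. It was listed at 5955 and 7709 normalized counts in ICM, and at 7372 and 6587 on day 0.5. Day 1 had 11926 and 12440, day 2 had 13130 and 18305, and day 3 had 21292 and 9145. Every library of days 1 to 3 was thus above every library of ICM and day 0.5. Day 5 dropped to 1075 and 2118. The ESC groups held 668 and 787 in P2, 551 and 220 in P4, and 2405 and 2686 in P15. All 8 libraries of day 5 and ESCs were below all 10 earlier ones, a split that is also the one between deep and shallow libraries. How many other miRNAs separate their libraries in these ways, or in those given below, was not counted. By group mean miR-10b-5p ranked between 11 and 21 among all miRNAs from day 0 to day 3, and between 45 and 132 afterwards. In order of group means, days 2, 3 and 1 came first, with overlapping neighbours. Day 0.5 and ICM also overlapped, and P15, day 5, P2 and P4 followed without overlap.

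miR-10a-5p was highest in ICM and took a different course. It was listed at 1974 and 2800 in ICM, 1260 and 1220 on day 0.5, 1032 and 1039 on day 1, 832 and 1028 on day 2, and 2713 and 1152 on day 3. Day 5 had 68 and 179. Both ICM libraries were above every outgrowth library except replicate 1 of day 3. Among ESCs, P2 had 41 and 50, P4 1415 and 634, and P15 395 and 399. Both P4 libraries were above all other ESC libraries, and both P2 libraries were below day 5. In order of group means, ICM, day 3 and day 0.5 overlapped with their neighbours, as did day 1, P4 and day 2. P15, day 5 and P2 followed without overlap.

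**Figure D2:**
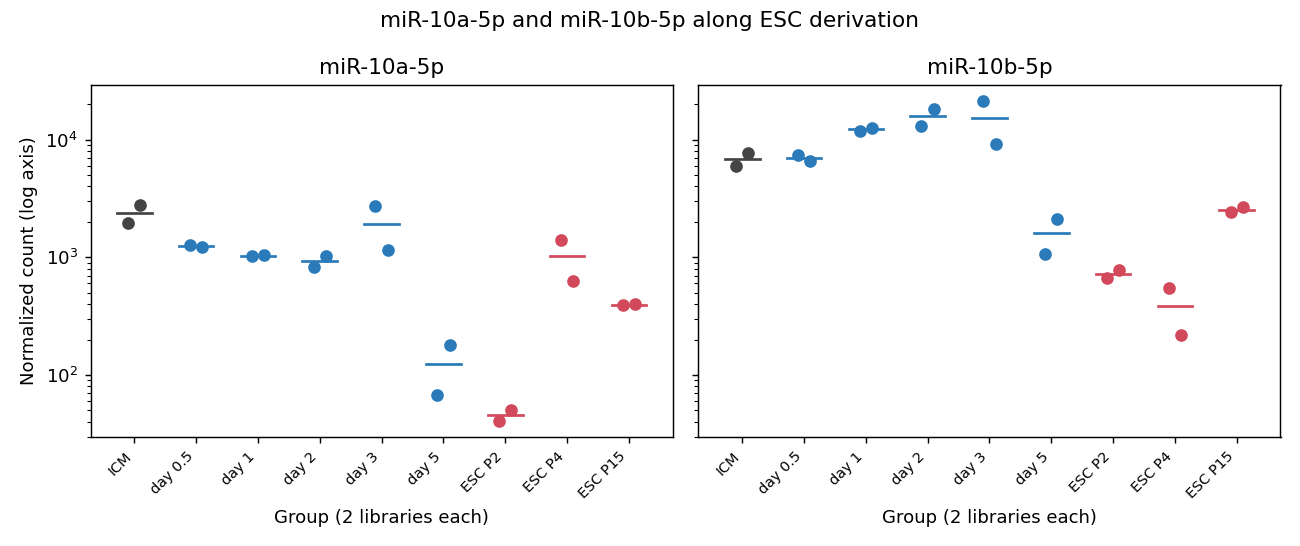
Normalized counts (log axis) of miR-10a-5p and miR-10b-5p in each library by group, with points for libraries and bars for the mean of 2. miR-10b-5p peaks on days 2 and 3 and miR-10a-5p in ICM, both are lower on day 5, and miR-10a-5p is high again in ESC P4.

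Changes were tested with limma on log2(normalized count + 1) over all 811 miRNAs with at least 10 in at least 2 libraries, with Benjamini-Hochberg adjusted p below 0.05 as the threshold. Of the 4 miRNAs 3 were tested, since miR-196b-5p did not reach that level. In ESCs against ICM, which sets the end of derivation against its start, miR-10b-5p fell by 2.97 log2 (SE 0.38, limma adjusted p = 4.54e-05). miR-10a-5p fell by 3.18 (SE 0.41, limma adjusted p = 4.35e-05). Each was lower in 6 of 6 ESC libraries than in both ICM libraries, but the share of all miRNAs that separate this way was not counted. Without P4, a comparison that was not planned, the changes against ICM were -2.32 and -4.12. With miR-196a-5p, described further on, 3 of 3 tested were called, against 55.2% of all tested miRNAs (23.7% lower and 31.6% higher).

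Of the 6 steps in time, the fall lay between day 3 and day 5. There miR-10a-5p fell by 3.99 log2 (SE 0.50, limma adjusted p = 2.22e-04), a 15.9-fold drop, and miR-10b-5p fell by 3.21 (SE 0.47, limma adjusted p = 6.19e-04), a 9.24-fold drop. Of all tested miRNAs 18.4% were called in this step, 6.17% lower. In each of the other steps from day 0 to ESCs none of the 3 tested miRNAs was called. The shares called in those steps were 11.3% for day 0.5 against ICM, 15.2% for day 1 against day 0.5, 10.9% for day 2 against day 1, 4.07% for day 3 against day 2 and 14.9% for ESCs against day 5. The step from day 3 to day 5 is also where depth changes. Both miRNAs were well above the listing limit on either side of it: miR-10a-5p had at least 252 estimated reads in each library of days 0 to 3 and at least 136 in each later one, and miR-10b-5p at least 1095 and 733. The labels give no preparation or sequencing batch, and the part of one in this step was not tested. A batch that followed depth could not be told apart from stage here, nor in ESCs against ICM, which crosses the same change of depth.

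Within the shallow libraries, outgrowths of days 0.5 to 3 against ICM gave 0.78 for miR-10b-5p (SE 0.37, limma adjusted p = 0.143) and -0.97 for miR-10a-5p (SE 0.39, adjusted p = 0.0884), with 30.9% of all miRNAs called. This comparison was not among those planned. Over all 5 outgrowth days miR-10a-5p fell by 1.65 against ICM (SE 0.39, limma adjusted p = 0.0063), where 34.9% of miRNAs were called, 16.3% higher and 18.6% lower. That call was lost without ICM replicate 2 (-1.40, adjusted p = 0.071). miR-10b-5p was at 0.19 (SE 0.36, limma adjusted p = 0.68) in that comparison. Within the deep libraries, ESCs against day 5 gave -0.81 for miR-10b-5p (SE 0.38, limma adjusted p = 0.249) and 1.22 for miR-10a-5p (SE 0.41, adjusted p = 0.076). Rescaling each library to 1 total gave -1.25 for miR-10b-5p (limma adjusted p = 0.00938), and quantile normalization -1.04 (adjusted p = 0.0419). Without single libraries it ran from -1.29 (without day 5 replicate 1) to -0.32 (without day 5 replicate 2). At the common floor miR-10a-5p passed the threshold narrowly (limma adjusted p = 0.0478). ESCs against outgrowths, across both depths, had miR-10b-5p lower by 3.16 log2 and miR-10a-5p lower by 1.53 (SE 0.24 and 0.26, limma adjusted p = 7.07e-07 and 4.33e-04), where 51.8% of miRNAs were called, 19.9% lower.

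The ratio of miR-10a-5p to miR-10b-5p compares miRNAs from 2 clusters within a library and does not depend on how libraries are scaled. miR-10a-5p made up 24.9% and 26.6% of the summed counts of the pair in ICM, 14.6% and 15.6% on day 0.5, 7.96% and 7.71% on day 1, and 5.96% and 5.32% on day 2. It was at 11.3% and 11.2% on day 3 and 5.95% and 7.79% on day 5. In ESCs it was 5.78% and 5.97% in P2, 14.1% and 12.9% in P15, but 72.0% and 74.2% in P4. P4 was thus the group in which miR-10a-5p exceeded miR-10b-5p, in 2 of 2 libraries, while the other 16 libraries had miR-10b-5p in excess.

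Replicates differed little in this ratio even where their levels differed. Those of day 3 differed 2.36-fold in miR-10a-5p and 2.33-fold in miR-10b-5p, but by 0.02 in the log2 ratio. In P4 they differed 2.23-fold and 2.50-fold, and by 0.16 in the log2 ratio. Across the 9 groups the replicate difference was 0.02 to 0.17, with day 5 at 0.41, whereas group means ran from -4.07 on day 2 to 1.44 in P4. Averaged over stages the log2 ratio was -1.74 ± 2.53 in ESCs (SD, n = 6) and -3.37 ± 0.61 in outgrowths (SD, n = 10). That difference of 1.63 had p = 0.0618 (exact permutation test, two-sided, 8008 assignments enumerated). The test moves single libraries, although the 2 of a group lie close together. Its p-values therefore do not measure the spread between the 3 ESC groups and the 5 outgrowth days. The difference rested on P4: without P4, a choice made after the values were seen, it was 0.05 (exact permutation p = 0.909).

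**Figure D3:**
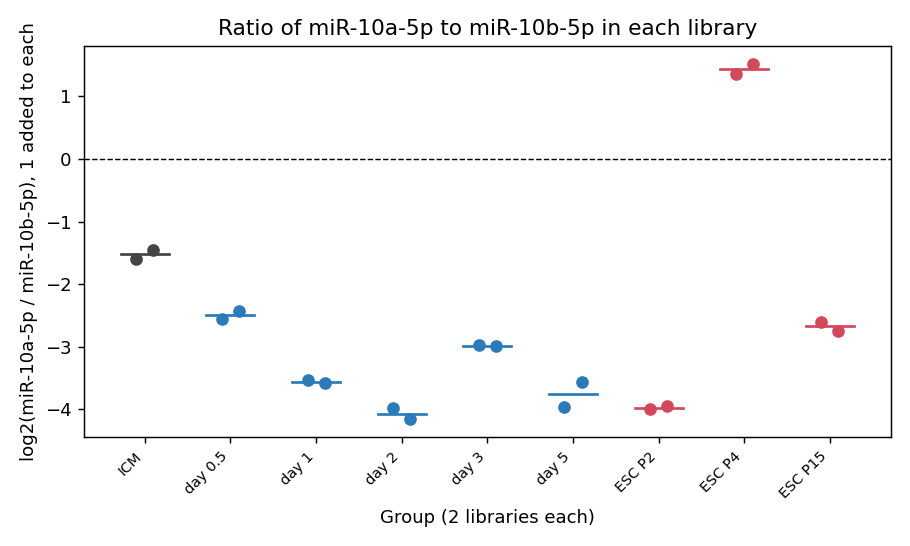
The log2 ratio of miR-10a-5p to miR-10b-5p in each library by group, with points for libraries, bars for the mean of 2 and a dashed line at equal counts. Replicates lie close together, the ratio goes down from ICM to day 2, and ESC P4 alone lies above the line at 1.36 and 1.52.

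Among the 3 ESC groups the levels differed by a limma F-test for miR-10a-5p (adjusted p = 9.57e-05) and miR-10b-5p (adjusted p = 0.00195), where 27.4% of all tested miRNAs were called. Their orders differed: miR-10a-5p was highest in P4, and miR-10b-5p highest in P15 and lowest in P4. Together the pair made up 1.04% to 2.48% of all normalized counts in the libraries of days 0 to 3 and 0.0908% to 0.293% in those of day 5 and ESCs. Over all 9 groups the F-test was called for both (limma adjusted p = 1.52e-05 and 6.02e-06), as for 66.5% of tested miRNAs.

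miR-196a-5p went the other way. It was listed at 33 and 0 in ICM, 55 and 21 on day 0.5, 78 and 28 on day 1, 40 and 35 on day 2, 0 and 40 on day 3, and 25 and 36 on day 5. Those of days 0 to 3 correspond to at most 32 reads, where counting error alone is large, and a value of 0 can stand for up to about 5 reads. In ESCs it was listed at 127 and 147 in P2, 586 and 605 in P4, and 330 and 340 in P15. All 6 ESC libraries were above all 12 earlier libraries, whose highest value was 78. The share of all miRNAs with such a separation was not counted. P4, P15 and P2 followed each other without overlap, and all groups below them overlapped with their neighbours.

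miR-196a-5p rose in ESCs against outgrowths by 3.52 log2 (SE 0.86, limma adjusted p = 0.00544), or by 3.02 at the common floor (SE 0.23, adjusted p = 5.82e-07), while 31.9% of tested miRNAs were called higher. Against ICM it rose by 5.70 (SE 1.36, limma adjusted p = 0.00392), with ICM replicate 2 listed at 0. At the floor the rise was 3.33 (SE 0.36, adjusted p = 9.49e-06). Without that library, ICM replicate 2, it was 3.15 and no longer called (limma adjusted p = 0.082). Within the deep libraries, ESCs against day 5 gave 3.28 (SE 1.36, limma adjusted p = 0.165), or 3.27 at the floor (SE 0.36, adjusted p = 9.03e-05). Libraries raised to the floor share 1 value, which lowers the spread that these p-values are measured against. Differences among the ESC groups were not called as deposited (limma F-test adjusted p = 0.752), but were at the floor (adjusted p = 0.00609). Outgrowths against ICM gave 2.18 (SE 1.29, limma adjusted p = 0.21), or 0.31 at the floor. Over all 9 groups the F-test was called (limma adjusted p = 0.0379), but leaving out 1 library ended that call for 14 of the 18.

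miR-196b-5p, from the Hoxa cluster, was listed at 0 in 15 of 18 libraries. It was at 2 in P15 replicate 1, 1 in P2 replicate 2 and 2 in P4 replicate 2. These values stand on at least 4, 3 and 6 reads. With so few values above 0, no ratio of miR-196a-5p to miR-196b-5p was tested.

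**Figure D4:**
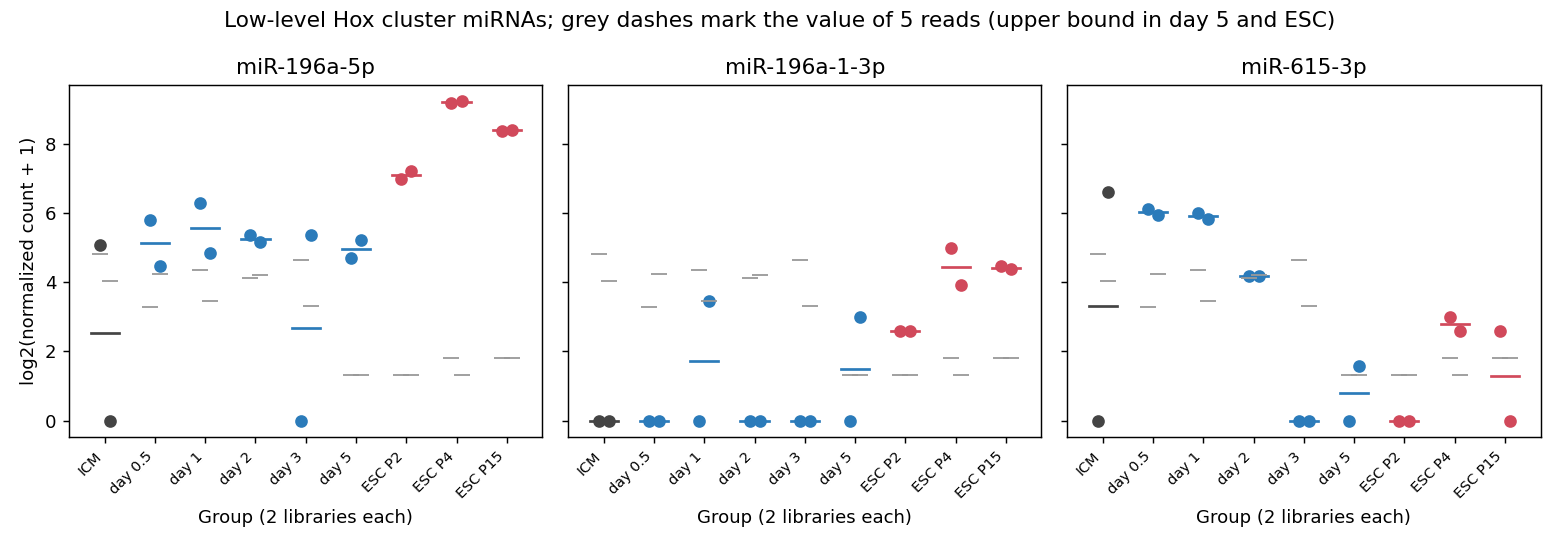
log2(normalized count + 1) of miR-196a-5p, miR-196a-1-3p and miR-615-3p in each library by group, with points for libraries, bars for the mean of 2 and grey dashes for the value of 5 reads (an upper bound on day 5 and in ESCs). miR-196a-5p lies above all earlier libraries in each ESC library, and miR-615-3p is higher up to day 1 than later, except for 1 ICM library at 0.

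The other miRNA arms of the Hox clusters were low. Of 8 names listed, 5 had a row and 3 were tested. In ESCs against outgrowths 1 of the 3 was called higher and 0 lower (median log2 change -0.37, against 0.28 over all tested miRNAs). Among all tested miRNAs 31.9% were called higher and 19.9% lower. The median of -0.37 is the value of miR-196b-3p, which was at 0 in most libraries. The one called was miR-196a-1-3p, the opposite arm of the Hoxb copy of miR-196a, which only that gene can give. It was listed at 5 and 5 in P2, 31 and 14 in P4, and 21 and 20 in P15. Of the 12 earlier libraries 10 held it at 0, the others being day 1 replicate 2 at 10 and day 5 replicate 2 at 7. Its change of 3.18 (SE 0.56, limma adjusted p = 5.80e-04) was 0.03 at the common floor (limma adjusted p = 0.348), since 5 of its 6 ESC values lie below 27.2. miR-10b-3p was listed at 2 in day 5 replicate 2 and at 0 elsewhere. miR-196b-3p was at 16 in ICM replicate 2, 12 in day 0.5 replicate 1 and 0 elsewhere. The names listed for the opposite arms of miR-10a and of Mir196a-2 had no matching row.

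miR-615-3p, from the Hoxc5 intron, was listed at 0 and 96 in ICM, 68 and 60 on day 0.5, 63 and 56 on day 1, and 17 and 17 on day 2. It was at 0 in both libraries of day 3. Day 5 had 0 and 2, P2 had 0 and 0, P4 had 7 and 5, and P15 had 5 and 0. The values up to day 1 stand on 16 to 39 reads, apart from the ICM library at 0. ESCs against outgrowths gave -2.02 (SE 0.84, limma adjusted p = 0.0657), and ESCs against ICM -1.94 (SE 1.33, adjusted p = 0.231). At the common floor the latter was -0.91 and called (limma adjusted p = 0.0334). That change rests on ICM replicate 2 alone, at 96, since ICM replicate 1 and every ESC library were raised to the same floor value. Such shared values also lower the spread behind the p-values at the floor. Against outgrowths of days 0.5 to 3 only, ESCs were lower by 2.66 log2 (SE 0.88, limma adjusted p = 0.0233), or by 0.59 at the floor (adjusted p = 0.0388). This comparison was not among those planned, and the share of all miRNAs called in it is not given here. miR-615-5p was at 19 in ICM replicate 2, 5 and 7 in P15 and 0 elsewhere.

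The nearest relatives of miR-10 outside the Hox clusters, miR-99 and miR-100, share most of its sequence but have another seed. They are shown to make the shift visible, with the seed in capitals.
miR-99b-5p: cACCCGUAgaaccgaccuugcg
miR-100-5p: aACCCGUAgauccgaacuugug
Of 6 arms listed, 5 had a row and 3 were tested, of which 0 were called in either direction in ESCs against outgrowths (median log2 change 0.06, against 0.28 over all). Among all tested miRNAs 51.8% were called in that comparison. miR-99b-5p, the most abundant, was at 2964 and 3634 in ICM, 1613 to 8010 in outgrowths (median 3317) and 1232 to 10377 in ESCs (median 3958). On day 5 against day 3, where both miR-10 fell, it gave -0.84 (SE 0.59, limma adjusted p = 0.408). miR-100-5p was at 1381 and 390 on day 3 and at 35 or below in each other library. Its rise from day 2 to day 3 was 4.75 at the common floor (SE 0.42, limma adjusted p = 8.76e-05), with day 2 listed at 0. From day 3 to day 5 miR-100-5p fell with miR-10, by 5.44 (SE 1.3, limma adjusted p = 0.0137), or by 4.75 at the floor (adjusted p = 3.22e-05). In ESCs against outgrowths miR-100-5p was not called as deposited (-1.21, SE 0.67, limma adjusted p = 0.157). At the floor it was lower in ESCs (-0.99, SE 0.21, limma adjusted p = 0.00198). That value rests almost wholly on day 3, since outside day 3 only day 0.5 replicate 2, at 35, lies above the floor.

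**Figure D5:**
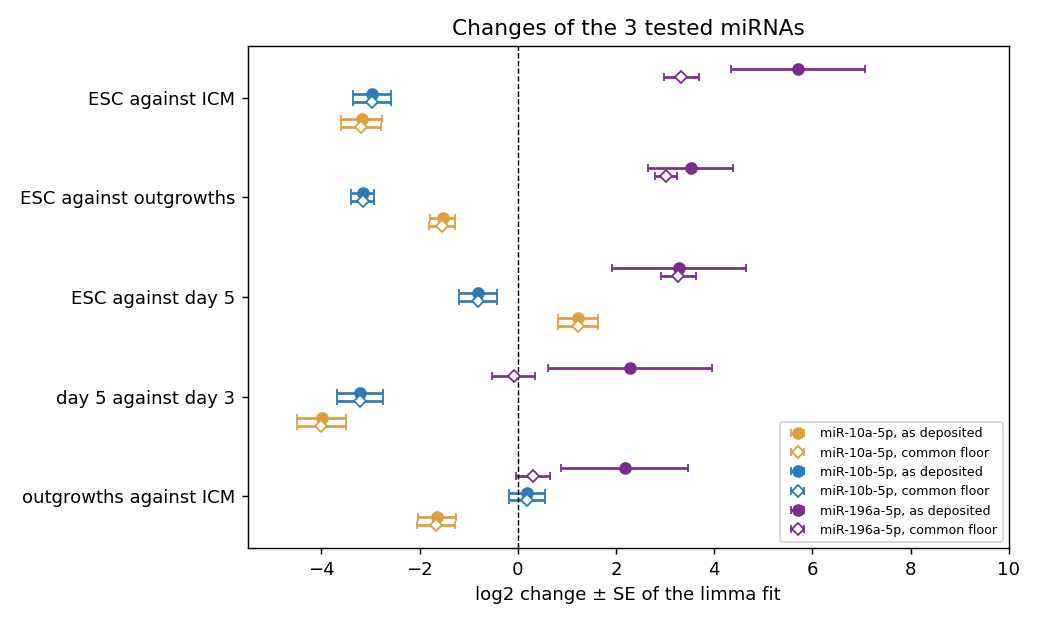
log2 changes with the SE of the limma fit (horizontal axis) of miR-10a-5p, miR-10b-5p and miR-196a-5p in 5 comparisons, as deposited (filled) and at the common floor (open). The floor moves the miR-10 values by 0.01 or less, whereas those of miR-196a-5p move closer to 0 where ICM or day 3 is involved.

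Likeness of profile was measured by Pearson's r of log2(normalized count + 1) over the 18 libraries, among 280 other miRNAs with a mean of at least 100. It is a description, since the libraries share stages and depth. miR-10b-5p was most like miR-351-5p (r = 0.905), let-7d-3p (0.888) and miR-320-3p (0.853). At the common floor miR-351-5p still led, before miR-7091-5p (0.893) and miR-702-3p (0.871). miR-10a-5p was most like miR-3968 (0.863), miR-3963 (0.837) and miR-5100 (0.816). miR-196a-5p was most like miR-181d-5p (0.768), miR-293-3p (0.71) and miR-290a-3p (0.664). At the floor it was most like miR-181d-5p (0.823), miR-27b-3p (0.82) and miR-23b-3p (0.803).

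miR-10b-5p is also known from mesenchymal cells, so markers of fibroblasts and smooth muscle were read beside it. Of 10 marker arms 9 had a row (miR-143, miR-145a, miR-199 and miR-214). Their summed level was 1082 and 1980 in ICM, 298 to 1811 in outgrowths and 1911 to 2518 in ESCs. miR-199a-3p and miR-199b-3p were listed with equal values in all 18 libraries, and the sum holds both. The markers did not move as 1 group. miR-143-3p, the most abundant, was at 381 and 419 in ICM, 143 to 736 in outgrowths and 1628 to 2375 in ESCs. miR-199a-3p was at 767 and 310 in ICM, 24 to 532 in outgrowths and 39 to 186 in ESCs. Its change in ESCs against outgrowths was not called (-1.31, SE 0.59, limma adjusted p = 0.0852). From day 3 to day 5, where miR-10b-5p fell by 3.21, it gave 1.28 (SE 1.14, limma adjusted p = 0.537).

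In ESCs against ICM miR-143-3p rose by 2.21 log2 (SE 0.20, limma adjusted p = 2.44e-06). miR-199a-3p gave -2.36 (SE 0.93, limma adjusted p = 0.0516), and -2.37 at the common floor (adjusted p = 0.0419). Of the 5 tested markers 2 were called higher and 1 lower in that comparison (median log2 change -2.36, or -0.57 at the floor, against 0.01 over all). Among all tested miRNAs 31.6% were called higher and 23.7% lower. The 5 count miR-199a-3p and miR-199b-3p as 2 although their values are equal, and the median of -2.36 is theirs. The same pair is counted as 2 in the comparison with outgrowths. In ESCs against outgrowths 2 of 5 were called higher and 0 lower (median 1.64, but -0.04 at the floor, against 0.28 over all). Among all tested miRNAs 31.9% were called higher and 19.9% lower there. On each of days 1, 2 and 3 the same number of markers, 6 of 9, was at 0 in both libraries, miR-145a-5p among them. In ICM and on day 0.5 miR-145a-5p was at 0 too, against 65 and 37 on day 5 and 40 to 56 in ESCs. Its zeros thus follow the shallow libraries, where a 0 can stand for up to about 5 reads.

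Of 10 names of blood cell markers, some of them alternative names of the same arm, 6 had a row. These markers summed to 2252 and 2918 in ICM, 528 to 2952 in outgrowths and 1061 to 2209 in ESCs, and they too went both ways. miR-486-5p, an erythroid miRNA, was at 2018 and 2558 in ICM, 191 to 779 in outgrowths and 57 to 409 in ESCs. It fell by 3.67 log2 in ESCs against ICM (SE 0.37, limma adjusted p = 6.24e-06). miR-142-5p, a miRNA of blood cell lineages and the most abundant of the list over the 18 libraries, was at 120 and 260 in ICM, 219 to 1040 in outgrowths and 350 to 1701 in ESCs. It rose by 2.32 log2 in ESCs against ICM (SE 0.29, limma adjusted p = 3.38e-05). Of the 5 tested markers 3 were called higher and 1 lower in ESCs against ICM (median 2.28, against 0.01 over all). Among all tested miRNAs 31.6% were called higher and 23.7% lower there. In ESCs against outgrowths 2 of the blood markers were called higher and 1 lower (median 0.28, the same as over all). The shares among all tested miRNAs were 31.9% higher and 19.9% lower. The part of such cells, mesenchymal or blood, in the levels of the miR-10 and miR-196 miRNAs was not tested.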

How the data were processed

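The small-RNA fraction of 18 mouse samples was sequenced after TruSeq library preparation, per the labels' protocols. Values deposited by the authors are scores: normalized counts, rounded to whole numbers, for each mature miRNA. The submitters' processing notes name cutadapt, DESeq2 1.30.0 and mm10. For the aligner, the counting and the scaling step, the method is not given in the sources used here.

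Columns were joined to libraries by description, and by title for day 0. Depth was estimated from values below 1000, which fell within 0.5 of whole multiples of 1 step in 10 libraries (99.5% to 100% of them). One limma 3.58.1 model (R 4.3.3) on log2(normalized count + 1) held the 9 group means, with 9 residual degrees of freedom and both the trend and robust options on. The script was tested on simulated data for ESCs against outgrowths, where it called 100 of 100 changes of 1 log2 and 1 of 81 unchanged miRNAs. All of these had a mean of at least 100. The simulation gave every miRNA the same spread beyond counting error, with no other difference between stages. It therefore does not show what the fit can call where the spread is larger, as for miR-196a-5p (SE 0.86 in this comparison). The permutation test was enumerated in Python 3.11.15. Named were the 4 miRNAs, other arms from the Hox clusters, the 3 most alike per miRNA and the most abundant of each list. miR-100-5p, miR-145a-5p, miR-199a-3p, miR-199b-3p and miR-486-5p are named beyond that rule and were chosen after their values were seen. The members and lists were chosen with earlier results of these data known. Alternatives covered the pseudocount, filters, the common floor, scaling, library weights, the replicate number and single libraries. No library was left out.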

Additional observations from a re-analysis of the deposited data

Results flagged for a closer look

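miR-196a-5p in replicate 1 of day 3, listed at 0, stood apart from the other 9 outgrowth libraries, which held 21 to 78: its gap to the nearest was 0.707 of the whole range on the log2 scale. In that library 5 reads are worth 24.1 normalized counts, so any level below that is listed at 0. Chance flags about 1 group in 20 in this way.

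The change from ICM to ESCs differed among the 3 ESC groups for miR-10a-5p (limma F-test adjusted p = 9.57e-05), which was at 41 and 50 in P2, 1415 and 634 in P4, and 395 and 399 in P15. It also differed for miR-10b-5p (limma F-test adjusted p = 0.00195), which was at 668 and 787, 551 and 220, and 2405 and 2686.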

How the results depend on the processing

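The directions of miR-10a-5p, miR-10b-5p and miR-196a-5p in ESCs against ICM and against outgrowths held under each alternative, and so did their calls, except that of miR-196a-5p against ICM without ICM replicate 2. Array weights ended the call of miR-10a-5p in outgrowths against ICM (-1.65, adjusted p = 0.437), as did days 0.5 to 3 only (-0.97). Leaving out single libraries, that change ran from -1.90 to -1.40, and those of miR-196a-5p ran from 3.15 to 8.24 in ESCs against ICM and from -0.37 to 4.72 in outgrowths against ICM, the highest without ICM replicate 1 (adjusted p = 0.0222). The F of miR-196a-5p among ESC groups, 0.81, was 11.68 at the common floor and 8.34 with array weights. Its F over all groups, 3.74, was 3.80 without a filter, 2.67 with each library rescaled to 1 total and 3.42 with the replicate block, none of them called (adjusted p = 0.0527, 0.0975 and 0.0561), and ran from 2.80 to 7.52 without single libraries. The log2 ratio difference of 1.63 was 1.68 with 10 added (exact permutation p = 0.043), and ran from 0.98 to 2.09 without single libraries. It was called without either P2 library (exact permutation p = 0.0263 and 0.028). These p-values too count the 2 libraries of a group as separate. In ESCs against day 5 the change of miR-10a-5p ran from 0.53 to 1.91, called without day 5 replicate 2, P4 replicate 2 or either day 3 library, with array weights and with a mean of at least 100. That of miR-196a-5p was called with 10 added (2.96) and with array weights (3.28). Replicate numbers did not pair the libraries: deviations of same-numbered replicates correlated at -0.36 to 0.24, above 0.1 in 3 of 36 pairs of groups. The replicate block changed no other call of the 3 miRNAs.

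The number of miRNAs called moved by over 1.5 times as follows. With a mean of at least 100 it was 230 in place of 448 (ESCs against ICM), 181 in place of 283 (outgrowths against ICM), 218 in place of 420 (ESCs against outgrowths), 35 in place of 123 (day 1 against day 0.5), 69 in place of 149 (day 5 against day 3) and 267 in place of 539 (all groups), fewer miRNAs being tested. With array weights it was 250, 61, 20 in place of 92 (day 0.5 against ICM), 57 (day 1 against day 0.5), 208 in place of 121 (ESCs against day 5) and 492 in place of 222 (ESC groups). Without the trend and robust options it was 57 in place of 88 (day 2 against day 1) and 19 in place of 33 (day 3 against day 2), and at the floor 183 (ESCs against day 5). The cause was not tested. Without single libraries it ran from 64 to 168 (day 0.5 against ICM), 63 to 160 (day 1 against day 0.5), 53 to 114 (day 2 against day 1), 20 to 60 (day 3 against day 2) and 85 to 173 (day 5 against day 3). After rescaling each library to 1 total, the median of all miRNAs moved from 0.01 to -0.44 in ESCs against ICM and from 0.28 to -0.06 in ESCs against outgrowths. A value of 5 reads carries a Poisson error of 44.7%, which limits miR-196a-5p before day 5.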
